A study of Mus musculus with 2 samples.

Results

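The array carried 15753 probes that are named by a chromosome interval and a strand in place of a transcript and that share their interval with at least 1 other probe. They lie in 3112 intervals and were chosen from the probe labels alone, as non-control spots labelled with chromosome, start, end and strand (F or R) where at least 2 different probes have the same chromosome, start and end. They make up 28.3% of the 55681 non-control probes. A further 428 probes sit alone in their interval and 13 carry no strand, and both kinds were left out. Positions are those of the array design, on the mouse build mm9.

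RNA came from ATDC5, a mouse cell line that turns into cartilage-forming chondrocytes when given insulin, transferrin and selenite (ITS). Both samples were stable lines with a transgene switched on by doxycycline. The control line expressed GFP, a fluorescent protein, and the other expressed A-CEBP, a dominant-negative partner of the C/EBP transcription factors that stops them from binding DNA. Doxycycline was given at 2 µg/mL for 2 days and differentiation in ITS lasted 3 weeks in both lines, per the labels, and the comparison asks how blocking C/EBP factors alters RNA levels in chondrocytes. Each group held 1 sample on 1 array, so the variation from culture to culture is unknown, no p-value was computed, and no difference below has a replicate check. The labels do not say whether a line was 1 clone, and neither transgene had a named probe, so its expression was not checked.

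Long intergenic noncoding RNAs are transcripts without a recognised protein product that lie between known genes. Many were first proposed from chromatin marks of active promoters and transcribed stretches, which give a region but no transcript model and often no strand, and arrays therefore place several probes along such a region, on one strand or on both. Many are held in the nucleus, are present at low levels and differ between cell types, and the function of most is not known. The files name these probes by position only. The genes that overlap or flank the intervals were not analysed here, because the gene table at hand was of another build, so the word noncoding is the working name of the set and was not checked against genes.

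Of 2045 intervals with probes on 1 strand, the median length was 2032 bp, and the quartiles were 593 and 12127 bp. The 1067 intervals with probes on both strands were longer, with a median of 17901 bp and quartiles of 10588 and 34790 bp. The most common numbers of probes in an interval were 3 (1628 intervals), 2 (395 intervals) and 10 (337 intervals), and the highest was 20. Intervals are not separate loci: 1711 of them overlap another, and all 3112 fall into 2060 stretches on 20 chromosomes. Probes of overlapping intervals may therefore read the same transcript.

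Across the 59305 non-control spots of each array, 54.6% were well above background in GFP and 58.0% in A-CEBP, and no spot was saturated. The cartilage markers Col2a1, Acan and Sox9 were measured in both samples, at log2 signals of 8.22, 2.09 and 1.69 in GFP and 8.65, 3.39 and 2.30 in A-CEBP, where 0 is the 75th percentile of that array. Of 8 chondrocyte markers, 7 were measured on both arrays, 6 of them higher in A-CEBP and 1 lower. In GFP and A-CEBP, Col9a1 read 2.49 and 3.13, Col10a1 4.12 and 5.09, Hapln1 -0.74 and 0.68, and Comp 4.43 and 4.39. Matn3 was not above background on either array. The 3 osteoblast markers with a probe were measured too: Ibsp read 6.0 and 6.15, Sp7 0.13 and 1.02, and Dmp1 0.55 and 1.87 in GFP and A-CEBP. None of the 3 muscle markers was well above background on either array. Of 3 endothelial markers, Pecam1 was measured (-3.10 and -3.30) and Cdh5 and Tek were not above background. Of 5 leukocyte markers with a probe, Itgam (4.43 and 4.67), Csf1r (0.77 and 0.63) and Cd3e (-0.33 and -0.14) were measured, and the defining Ptprc and Adgre1 were not above background. Where a gene had several measured probes, the values are those of its brightest. The 2 measured probes of Itgam differed by -0.57 and 0.23, and those of Csf1r by -0.14 and 0.36. Fabp4, a fatty acid carrier of adipocytes, was the 1 adipocyte marker of 4 measured on both arrays and went from 1.78 to -0.14. Adipoq (-4.72 and -4.74) and Plin1 (-4.87 and -4.31) were above background in A-CEBP only, and Cidec on neither array. The part of any of these markers in the results below was not tested.

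Most interval probes gave no signal above background. After 1 probe was left out as an outlier spot, 5424 of 15752 (34.4%) were well above background on both arrays, 227 in GFP only, 1080 in A-CEBP only and 9021 (57.3%) on neither. Among all 55671 probes, 29298 (52.6%) were so on both arrays, 614 in GFP only, 2600 in A-CEBP only and 23159 (41.6%) on neither. More probes were thus seen in A-CEBP only than in GFP only across the whole array too. The share on both arrays was 60.0% among probes outside intervals, 67.8% among probes of RefSeq protein-coding genes and 38.2% (333 of 871) among probes of RefSeq long noncoding RNA genes. The share for interval probes thus lay nearer to that of annotated long noncoding RNAs than to that of protein-coding genes. Each array gives 1 reading of this share. In GFP 35.9% of interval probes were well above background and in A-CEBP 41.3%, and the faintest accepted signal was 32.93 intensity units in GFP against 24.8 in A-CEBP. The detection limit was therefore lower on the A-CEBP array, and its part in the 1080 probes seen there only was not tested.

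Detection hardly depended on the kind of interval. The share measured on both arrays was 34.1% in intervals with probes on 1 strand and 34.7% in those with both strands, 32.8% for F and 36.1% for R, and 34.4% and 33.7% in intervals with 2 and 3 probes. Just outside the rule, 172 of the 428 probes alone in their interval (40.2%) were measured. By chromosome the share ran from 24.7% on chromosome 9 to 45.2% on chromosomes 5 and 17.

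Among the 5424 probes measured on both arrays, the log2 signal in GFP had a median of -2.62, with quartiles of -3.63 and -1.05 and a highest value of 8.60. In A-CEBP the median was -2.63, the quartiles -3.67 and -1.04 and the highest value 8.41. In GFP 839 of them (15.5%) and in A-CEBP 845 (15.6%) exceeded the 75th percentile of the array. Both arrays thus gave the set the same spread of levels, most of it in the dim range.

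With both directions together, 2-fold differences between A-CEBP and GFP in these probes were about as frequent as on the array as a whole. Probes higher in A-CEBP, taken alone, were a smaller share than on the whole array. Of the 5424 measured probes, 99 (1.83%, exact 95% binomial interval 1.49 to 2.22%) were at least 2-fold lower in A-CEBP, against 1.57% of all 29298 probes measured on both arrays. At least 2-fold higher were 31 (0.572%, interval 0.389 to 0.81%), against 0.87% of all probes, and 130 (2.4%) differed in either direction, against 2.44%. The median log2 difference, A-CEBP minus GFP, was 0.004 and its SD over probes 0.40, against 0.03 and 0.397 for all probes. The intervals cover the counting of probes only, and probes of 1 interval are not independent. In whole-culture RNA, fewer cells of a type and less RNA per cell cannot be told apart. The split between directions depended on the scaling. With scaling on spike-in control spots, which moved the median of all probes from 0.03 to 0.26, 64 probes (1.18%) were lower and 78 (1.44%) higher, against 1.04% and 2.18% of all probes. With another background correction (normexp) 44 (0.811%) were lower and 6 (0.111%) higher, against 0.949% and 0.44%.

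By brightness, the class at or above the 75th percentile depended on 1 locus. There 15 of 835 interval probes (1.8%) were lower and 2 (0.24%) higher, against 0.994% and 0.69% of 12469 probes of that brightness outside intervals. Without the R probes of 1 group of 4 intervals on chromosome 1, described next, 4 of 824 (0.485%) were lower. From -2 to 0, 32 interval probes (2.63%) were lower and 3 (0.247%) higher, and 29 and 3 without the group. Outside intervals the shares there were 1.95% and 1.01%. From -3 to -2 the counts were 15 (1.35%) and 16 (1.44%), against 2.67% and 1.72% outside intervals. From -4 to -3 they were 24 (1.65%) and 10 (0.687%), against 2.14% and 1.71%. In the dimmest class, under -4, 13 of 808 interval probes (1.61%) were lower and none higher, and outside intervals 19 of 1171 (1.62%) and none. The medians there were -0.15 and -0.16. The faintest accepted levels were -4.73 in GFP and -5.19 in A-CEBP, so this class had less room for 2-fold higher probes than for lower ones. By strand, 62 of 2818 measured R probes (2.2%) and 37 of 2606 F probes (1.42%) were at least 2-fold lower. Without the chromosome 1 group 47 of 2803 R probes (1.68%) were lower, and over both strands 84 of 5407 (1.55%).

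The largest difference shared by several probes lay in this group of 4 intervals within 63.7 kb on chromosome 1 (mm9), of which 3 overlap and the fourth lies 33.2 kb further on. Of 16 probes on strand R, 15 were measured on both arrays, and all 15 were at least 2-fold lower in A-CEBP, by log2 differences of -2.77 to -1.27 with a median of -1.62. The 16th was not above background on either array. All but 1 of the 15 lay above the 75th percentile of the array in GFP.

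In chr1:175653557-175671940, strand R, the 3 probes read 1.36, 0.15 and 1.68 in GFP and -1.41, -2.13 and -0.06 in A-CEBP, a mean log2 difference of -2.26 ± 0.51 (SD over 3 probes of 1 array pair), or 4.80-fold lower. In chr1:175654606-175672031, which overlaps it almost wholly, the 5 R probes read 2.74, 2.55, 2.32, 2.61 and 0.89 in GFP and 1.12, 1.11, 0.91, 1.27 and -0.37 in A-CEBP. Their mean difference was -1.42 ± 0.13 (SD over 5 probes), or 2.67-fold lower. The probes of these 2 intervals gave one direction and different sizes, and their ranges of difference, -2.77 to -1.74 and -1.62 to -1.27, did not overlap. In chr1:175660642-175671878, nested in both, 2 of 3 R probes were measured, at 0.77 and -3.21 in GFP and -1.62 and -4.56 in A-CEBP, a mean of -1.87 ± 0.73. In the separate interval chr1:175705225-175717250 the 5 R probes read 1.95, 1.77, 2.65, 2.77 and 4.38 in GFP and -0.21, -0.31, 0.63, 1.23 and 3.00 in A-CEBP. All 5 were lower in A-CEBP, with a mean of -1.83 ± 0.35 (SD over 5 probes), or 3.57-fold.

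Strand F of the same group was mostly not detected. Of 10 F probes, 2 were measured on both arrays, 3 were above background in GFP only and 5 on neither array. The 2 measured probes, both in chr1:175705225-175717250, read -3.06 and -2.0 in GFP and -3.96 and -2.79 in A-CEBP, with differences of -0.90 and -0.79. They were lower too, by less than any R probe of the group.

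An interval strand, the probes of an interval that share a strand, gives several readings of the same pair of cultures. Of 4179 interval strands, 1397 had at least 2 measured probes, 1077 had 1 and 1705 had none. In 12 of the 1397 (0.859%) every measured probe was at least 2-fold lower in A-CEBP, against 0.972% of 3601 named genes with at least 2 measured probes. In 2 (0.143%) every probe was at least 2-fold higher, against 0.194% of named genes. The 12 lower strands fall into 10 stretches, since 3 of them are the overlapping chromosome 1 intervals. The count was 5 when overlapping intervals were merged so that all their probes had to pass, 6 with at least 3 measured probes, 5 with the normexp background and 7 with spike-in scaling. Over all 1397 strands, 362 had every probe below 0 and 326 every probe above 0, together 49.2%. Among named genes the share was 67.2% (2419 of 3601). The strands held 5926 pairs of measured probes and the more numerous genes 5164, so strands had more probes each. Shares that require every probe to pass are therefore not directly comparable between strands and genes. Pair by pair, 67.1% on strands and 69.9% in named genes had the same sign. The median of the strand means was -0.01 with an SD of 0.32.

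Beside the chromosome 1 group, the lower strand with the largest least difference was F of chr6:57583950-57624216, 40.3 kb long. Its 2 probes read 0.68 and -0.04 in GFP and -1.04 and -1.72 in A-CEBP, a mean difference of -1.70 ± 0.03 (SD over 2 probes), or 3.25-fold lower. None of the 4 probes on its R strand was above background on either array. On the same chromosome, R of the short interval chr6:3283191-3284581 (1391 bp) read -2.23 and -3.45 in GFP and -3.70 and -4.78 in A-CEBP, a mean of -1.40 ± 0.10. These probes were dim on both arrays, and with the normexp background the mean was -0.70. The R probe measured in chr6:3333825-3349525 differed by -1.27.

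On chromosome 13 the lower signal extended over both strands of the wider interval. R of chr13:60524145-60528559 read 1.26 and 1.37 in GFP and -0.12 and 0.13 in A-CEBP, a mean of -1.31 ± 0.10 (2.48-fold lower). This interval is nested in chr13:60508775-60534625, whose 5 R probes differed by -1.52 to -0.90 with a mean of -1.29. On F of the wider interval 4 of 5 probes were measured, with differences of -1.33 to -0.83 and a mean of -0.97. Levels on F were -3.49 to -2.20 in GFP.

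On chromosome 18, R of chr18:5162836-5165729 read -1.33, -0.72 and -1.12 in GFP and -2.79, -2.05 and -2.32 in A-CEBP, a mean of -1.33 ± 0.13 (SD over 3 probes, 2.52-fold lower). The interval around it, chr18:5119300-5181600, had 4 measured R probes that differed by -1.19 to -0.66, and none of its 5 F probes was above background. Here the difference was read on R alone, by 7 probes in all. R of chrX:18734106-18744367 read -0.75, -0.65 and -0.14 in GFP and -2.11, -1.94 and -1.19 in A-CEBP, a mean of -1.23 ± 0.16 (2.35-fold). The next interval, chrX:18744367-18853992, shares its boundary base and had 1 measured probe on each strand, which differed by 0.15 on F and 0.43 on R. A shorter interval inside that one, chrX:18810088-18814982, had 2 measured R probes, at -0.74 and -0.63. R probes within the span of the second interval thus differed in both directions.

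The tenth was R of chr10:120058696-120076196, whose probes read -0.05 and -0.38 in GFP and -1.13 and -1.44 in A-CEBP, a mean of -1.07 ± 0.01 (2.10-fold). The overlapping chr10:120069727-120136259 had 2 measured R probes, at -1.39 and -0.99. The remaining 2 lower strands were named after their values were seen. F of chr12:89092175-89105525 had differences of -1.30 and -1.04, while the 1 measured probe of its R strand differed by 0.16. F of chr11:119254413-119296960 had differences of -1.15, -1.05 and -1.02, and the 3 F probes of the overlapping chr11:119250824-119286324 ran from -1.40 to -0.65.

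Strands higher in A-CEBP were fewer, and the 2 with every probe past 2-fold were dim on both arrays. R of chr1:73664661-73911040, which spans 246.4 kb, read -2.57, -3.27 and -3.02 in GFP and -1.56, -2.17 and -1.88 in A-CEBP, a mean of 1.08 ± 0.07 (SD over 3 probes, 2.12-fold higher). F of chr17:7838192-7853103 read -3.18 and -3.39 in GFP and -2.16 and -2.35 in A-CEBP, a mean of 1.03 ± 0.02. Its other probe was above background in A-CEBP only. With the normexp background the means of these 2 strands were 0.66 and 0.53, so neither kept that size. That setting adds an offset of 50 intensity units, which shrinks log2 differences of dim probes by construction.

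Below them were strands whose probes were all higher but not all by 2-fold. On chromosome 1, F of chr1:73004154-73007481 (0.75 to 1.13, mean 0.90) and F of chr1:72983462-72987115 (0.68 and 0.95, mean 0.81) lie near each other. F of chr6:127111250-127142925 had 5 probes between 0.68 and 0.86, a narrow range: they read -1.19, -1.77, -1.36, -1.41 and -1.25 in GFP and -0.50, -1.02, -0.58, -0.59 and -0.39 in A-CEBP. F of chr6:125330524-125410249 had 3 of 6 probes measured, at 0.67, 1.14 and 1.20, and 2 more were above background in A-CEBP only. Nearer to the 75th percentile was F of chr8:89996710-90049453, which read -3.26, 0.50 and 0.88 in GFP and -2.56, 1.24 and 1.74 in A-CEBP (mean 0.77). The interval at its end, chr8:90048940-90049461, had a mean of 0.78 over 3 F probes. R of chrX:91000651-91005855 read 0.41 and 0.48 in GFP and 1.06 and 1.20 in A-CEBP (mean 0.68), and R of chr4:114631940-114632618 had a mean of 0.93 over 2 of 3 probes. These 20 strands were chosen for large differences, so a kept direction under the other settings says little. With the normexp background the mean of 8 of the 10 lower strands and of none of the 10 higher strands reached 2-fold, and means moved by up to 0.70. Those of chr1:72983462-72987115 and chr4:114631940-114632618, for example, were 0.41 and 0.45.

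Probes above background on 1 array only allow a lower bound, the bright reading against the higher of the dim reading and the faintest accepted signal of the dim array. Of 227 interval probes seen in GFP only, 105 (46.3%) were at least 2-fold lower in A-CEBP by this bound, against 51.0% of all probes of that kind. Of the 1080 seen in A-CEBP only, 68 (6.3%) were at least 2-fold higher, against 7.69%. No interval strand with at least 2 probes was seen wholly in GFP only, and 6 were seen wholly in A-CEBP only. The largest bound among these, at least 1.61-fold higher, was for R of chr10:61498439-61498933, whose 2 probes gave 1.44 and -0.06 on the log2 scale. The next were F of chr9:41368823-41369514 (at least 1.29-fold), F of chr8:110196655-110390197 (at least 1.20-fold) and F of chr6:125407739-125408857 (at least 1.18-fold), which lies within the chromosome 6 interval above. No strand thus had a bound of 2-fold.

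The largest differences of all were those of single probes whose neighbours on the strand were not measured or differed by far less. A probe on R of chr9:75316023-75344401 read 0.63 in GFP and -4.56 in A-CEBP, a difference of -5.19 (36.6-fold lower). The other 9 R probes of that interval were not above background on either array, and 8 of its 10 F probes were measured, at differences of 0.05 to 0.35. On R of chr10:117021051-117038683, 1 probe went from -0.20 to -4.42 (-4.22, 18.6-fold lower), while the 3 other measured probes of the strand differed by -0.26, -0.02 and 0.23. These make the 3 widest disagreements between probes of a strand, 4.45, 4.19 and 3.96. The fourth was on F of chr11:22681800-22707775, where 1 probe went from -0.51 to -3.58 and the other from 1.32 to 1.48, so that the differences lay 3.24 apart.

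Further single probes stood apart in size. On F of chrX:65756325-65757543, 1 probe differed by -3.33 and the others, in the same direction, by -0.57 and -0.37. On R of chr13:34693404-34717987, 1 differed by -2.49 and 3 others by 0.06 to 0.47. Of the 6 largest lower probes, only that in chr1:175653557-175671940, at -2.77, had neighbours at least 2-fold lower, at -2.28 and -1.74.

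Among the higher probes, 1 on R of chr8:108153471-108159672 went from -3.96 to -0.67 (3.30, 9.82-fold higher). Of its 3 neighbours 1 was above background in GFP only and 2 on neither array. On F of chr4:105035450-105059250, 1 probe differed by 2.06 and 2 others by 0.20 and 0.26. On F of chr17:21787577-21828406, 1 differed by 1.90 and the others by -0.45 and -0.22. On F of chr6:53808521-53817132, 1 differed by 1.67 and neither neighbour was above background on either array. So 2 of the 6 largest higher probes had no measured neighbour, and none of the measured neighbours of the others was at least 2-fold higher. These 12 single probes were named after their values were seen, and which transcript each of them reads was not analysed here.

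Counted over all 130 probes that differed by at least 2-fold, 21 were the only measured probe of their strand. Of the 86 lower probes with a measured neighbour, 64 had all neighbours below 0, 49 had another probe at least 2-fold lower and 22 had a neighbour above 0. In 21 of the 86 no neighbour reached 0.5 in the same direction. Of the 23 higher probes with a measured neighbour, 15 had all neighbours above 0, 7 had another at least 2-fold higher and 13 had none reaching 0.5. A 2-fold difference of 1 probe was thus shared by another probe of the strand in 49 of 86 lower and 7 of 23 higher cases. The 15 measured R probes of the chromosome 1 group are among both the 49 and the 86.

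Probes of a strand agreed more the brighter they were. Over 5926 pairs of probes measured on a shared strand, 67.1% (95% interval 65.9 to 68.3%) had differences of the same sign. Of these pairs, 130 (2.19%) lay at least 1 log2 unit apart. The SD within a pair, that of the A-CEBP minus GFP difference of 1 probe, was 0.278. Where the dimmer probe was under -4, 58.6% had the same sign and the SD was 0.342. The SD was 0.319, 0.27 and 0.188 in the next 3 classes, up to -3, -2 and 0. Where the dimmer probe was at or above 0, 81.4% had the same sign and the SD was 0.119, close to the 0.106 of probes of 1 named gene. Pearson's r between paired differences, with each pair entered in both orders, rose over these classes from 0.205 to 0.911. The brightest class includes pairs of the chromosome 1 group, and its r without that group was not computed. Pairs share both arrays and both cultures, and a probe enters several pairs, so these values are descriptions of measurement. Over all brightness classes 5164 pairs of probes of a named gene gave 69.9% of the same sign, an SD of 0.19 and an r of 0.686. In the brightest class the share of the same sign was 74.9% for named genes.

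Replicate spots of 1 probe, which exist for 291 probes outside the intervals, differed by an SD of 0.107 over all, from 0.271 in the dimmest class to 0.065 in the brightest. Every interval probe had 1 spot, so its own repeat error was not measured. The error model of the scanner software gave a median error of 0.23 for the log2 difference of an interval probe, with quartiles of 0.21 and 0.29. Differences of the chromosome 1 probes were several times that error, which covers the measurement and not the spread between cultures.

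Opposite strands of an interval were less alike than probes of 1 strand, in a comparison not matched for brightness. Over 3773 pairs of probes on opposite strands, 59.9% (95% interval 58.3 to 61.4%) had differences of the same sign. The SD within a pair was 0.376 and Pearson's r, computed as above, 0.211. A probe enters several of these pairs too, and the part of brightness in the lower agreement was not tested. Of the 1067 intervals with probes on both strands, 505 (47.3%) had a measured probe on each, 176 (16.5%) on F alone, 212 (19.9%) on R alone and 174 (16.3%) on neither. Among 878 with at least 2 probes on each strand, 50 had every probe of 1 strand measured and none of the other, and 12 had every probe of both. Over the 505 intervals with a measured probe on each strand, the median distance between the strand means was 0.22, the r across intervals 0.13, and 19 intervals lay at least 1 apart. Where both strands had at least 2 measured probes (197 intervals), the median distance between the strand means was 0.18, the r across intervals 0.43, and 2 intervals lay at least 1 apart.

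The widest distances between strands rested on single probes, as in chr9:75316023-75344401 (5.38 apart) and chr8:108153471-108159672 (3.10 apart). In chr2:156654675-156665430 the 1 measured F probe differed by 0.58 and the 1 R probe by -2.25. In chr7:111526943-111545093 the 3 F probes had a mean of 0.06 and the 1 R probe differed by -2.32. With at least 2 probes on each strand, a condition added after the values were seen, the widest were chr12:111287772-111333890 (F 0.93, R -0.43), which includes a probe at 1.68, and chr17:17492400-17507525 (F -0.51, R 0.57).

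Overlapping intervals on a strand had more alike differences than intervals lying apart. For 241 pairs of overlapping intervals on the same strand, each with at least 2 measured probes on that strand, Pearson's r of their mean differences was 0.68, or 0.57 over 238 pairs without the chromosome 1 group. For 44 pairs up to 10 kb apart it was 0.03, and for 606 pairs between 100 kb and 1 Mb apart also 0.03. Between 10 and 100 kb it was 0.54, and 0.24 over 176 pairs without the chromosome 1 group, so the value at that distance rested largely on the group. All pairs share the same arrays and cultures, and overlapping intervals can hold probes for 1 transcript.

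The strands with the most measured probes gave small, even differences. All 10 F probes of chr16:43623581-43642715 were higher in A-CEBP, by 0.34 to 0.60 with a mean of 0.47, at GFP levels from -4.14 to 3.02. All 10 F probes of chr4:129497990-129515290 were lower, by -0.77 to -0.25 with a mean of -0.44. In F of chr17:26911397-26917047 the 10 probes lay between -0.08 and 0.13 (mean 0.03), and in F of chr19:5771425-5848475 between -0.36 and 0.30 (mean -0.10). In the first 2 every probe shared a direction at a size below 2-fold. With spike-in scaling every difference shifts up by about 0.23.

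Long noncoding RNAs known by name were few, and their count of 2-fold differences cannot be set apart from the 2.44% of all probes. Of 76 gene symbols listed, 41 had a probe and 32 were measured on both arrays, 26 of them below 0 and 6 above, none by 2-fold, with a median of -0.19 against 0.03 for all probes. With spike-in scaling the median was 0.04, with 10 below 0 and 22 above, so the list has no direction that holds under both scalings. Neat1, the scaffold RNA of nuclear paraspeckles, read 5.66 in GFP and 5.47 in A-CEBP, and Malat1, a nuclear RNA of splicing speckles, 1.00 and 0.80. The lowest was Snhg17, a small nucleolar RNA host gene, at -0.56, and the highest Snhg18, another host gene, at 0.40. The 871 probes of RefSeq long noncoding RNA genes held 2 lower and 1 higher by 2-fold among 333 measured.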

How the data were processed

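Labelled cRNA (Cy3) from 0.1 µg total RNA was hybridised to 1-colour Agilent arrays, per the labels. The deposited scanner values are spot intensity, from which background and a spatial trend had been removed array by array, per the file headers. The submitters' processing notes name Agilent Feature Extraction 10.10.1.1. The authors' deposited series table is that intensity multiplied by 1 constant per array (1.24 for GFP and 1.152 for A-CEBP, column medians of 70.9 and 67.4). The origin of these constants was not stated.

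Here log2 of the processed signal minus the 75th percentile of each array (872 and 906 intensity units) was used, in Python 3.11.15 with pandas 2.3.3 and scipy 1.17.1. Control spots and 293 outlier spots were left out. A probe counted as measured when over 50% of its spots were marked well above background on both arrays. The size rule was 2-fold, and no test between groups was possible. Gene symbols came from RefSeq accessions (table of GRCm38.p6, names only), with 27229 of 55671 probes named. Binomial intervals are exact (Clopper-Pearson) and cover counting error only. Alternatives covered scaling, background, filters, size rule and interval summary. Normexp and quantile scaling came from limma 3.58.1, with normexp on median spot signals, offset 50. The planned mean signal column was not used here. The scripts were tested on simulated data.

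The rule for named intervals took the 10 strands in each direction with the largest difference of their least different probe, given at least 2 measured probes all in 1 direction. It also took the 4 largest bounds, the 4 widest probe pairs, the 4 widest strand distances and the 4 strands with the most measured probes. Members and lists were chosen with earlier results of these data known. Probe sequences and the genes near the intervals were not analysed here.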

Additional observations from a re-analysis of the deposited data

How the results depend on the processing

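No paired analysis was possible because each group held 1 sample and the labels give no replicate numbers, and leaving out a replicate was not possible either. Of interval probes at least 2-fold apart, 99 lower and 31 higher became 979 and 633 without a detection filter, 19 and 2 above the median level, 64 and 78 with spike-in scaling, 44 and 6 with the normexp background, 355 and 195 at 1.5-fold and 14 and 2 at 4-fold. The shares of all probes under the changed filters and size rules are not given here, so those counts cannot be compared with the whole array. Of interval strands with every measured probe 2-fold apart, 12 lower and 2 higher became 33 and 13 at 1.5-fold, 0 and 0 at 4-fold, 6 and 1 with at least 3 measured probes, 4 and 0 above the median level and 5 and 0 with normexp. The lower count was 7 with spike-in scaling and 5 with overlapping intervals merged, an alternative chosen after seeing the data. The higher count was 5 without a detection filter, 1 with the percentile taken over measured probes, 0 with cyclic loess and 0 with the series table as deposited. The size rules and filters change these counts by construction. So does spike-in scaling, which shifts every difference up by about 0.23. The normexp setting adds an offset of 50 intensity units, above the faintest accepted signals of 32.93 in GFP and 24.8 in A-CEBP. Log2 differences of dim probes therefore shrink by construction, and how much of the change this offset made was not tested. For the other scalings the cause was not tested. The share of probe pairs of the same sign, 67.1%, was 58.4% without a filter, 81.0% above the median level and 59.9% for opposite strands, the last chosen after seeing the data. Without the chromosome 1 group, also chosen after seeing the data, 84 probes and 8 strands were lower. The share of called probes that were higher was 23.8%, and 54.9% with spike-in scaling. Most interval probes lay near background, where 2-fold differences rest on few intensity units, and 1 array a group limits every value.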
